A study of Saccharomyces cerevisiae with 24 samples.

Results

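The heat response of ribosome footprints was compared between yeast without ZUO1 and wild-type yeast. The measure was the interaction, the log2 heat response in zuo1Δ minus the log2 heat response in wild type, so a positive value means that the gene stood higher after heat, relative to the unstressed state, in zuo1Δ than in wild type. It rests on 8 of the 24 libraries of the series. The genes described are those whose interaction passed the edgeR quasi-likelihood test at an adjusted p under 0.05 over all 5064 genes tested, which were 52 genes.

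The 4 groups were zuo1Δ after heat, zuo1Δ unstressed, wild type after heat and wild type unstressed, each with 2 biological replicates. The fit also held the H2O2 groups of both genotypes (0.25 mM for 30 min at 30 °C), which are not part of the contrast. Both genotypes are of the strain background BY4741, a haploid laboratory strain of mating type a, grown to exponential phase at 30 °C in synthetic complete medium with glucose. Heat was 45 min at 37 °C, reached by adding warm fresh medium, and unstressed cells were taken before that step, so heat, dilution and the added time cannot be told apart. The sources used here do not say whether the mutant is 1 clone or which marker replaced ZUO1. Footprints are the stretches of mRNA that ribosomes protect from nuclease, and a footprint count reflects both how much mRNA a gene has and how many ribosomes sit on it.

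Zuo1 is a J-domain protein that forms the ribosome-associated complex with the Hsp70-like protein Ssz1 and stimulates the Hsp70 Ssb on nascent chains at the ribosome exit tunnel. Heat misfolds proteins, and yeast answers through Hsf1, which drives cytosolic chaperone genes, and through Msn2 and Msn4, which drive a general stress program. The cell wall integrity pathway and the calcium-activated phosphatase calcineurin answer to heat as well, while genes for ribosomal proteins are turned down.

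ZUO1 had 0 counts in all 4 zuo1Δ footprint libraries of the comparison and 1987 to 6945 counts in the 4 wild-type ones. Footprint totals were 2902372 and 1719832 counts in zuo1Δ after heat, 12911338 and 5848548 in zuo1Δ unstressed, 2218964 and 6293584 in wild type after heat, and 1686930 and 1788399 in wild type unstressed. The deepest libraries were thus those of unstressed zuo1Δ. The general stress genes of Msn2 and Msn4 had median log2 levels, relative to the mean of the unstressed libraries, of 1.04 and 0.96 in zuo1Δ after heat, 0.69 and -0.21 in zuo1Δ unstressed, 1.05 and 0.90 in wild type after heat, and 0.35 and -0.71 in wild type unstressed. The heat libraries lay close together on this list and the unstressed replicates of each genotype lay apart. All 6 genes that define a-cells had counts, and of the alpha-cell genes STE3, the a-factor receptor, was the 1 with counts, at 1.57 to 11.9 CPM in these libraries, where CPM are TMM-scaled counts and stand for a gene's share of its library.

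The heat response of 52 genes (1.03% of those tested) differed between the genotypes. It was higher in zuo1Δ for 31 genes (0.612%), from 0.85 to 3.78 on the log2 scale, and lower for 21 genes (0.415%), from -2.90 to -1.12. In zuo1Δ 601 genes (11.9%) changed after heat, 284 up (5.61%) and 317 down (6.26%), and in wild type 497 genes (9.81%) changed, 179 up (3.53%) and 318 down (6.28%). Genes that changed in both numbered 188, of which 185 moved the same way, which is 30.8% of the zuo1Δ list and 37.2% of the wild-type list. Of 722 genes that passed in 1 genotype and not in the other, 45 had an interaction that passed, so for the other genes a difference in heat response was not shown. Across the 5064 genes the responses in zuo1Δ and wild type, which share no library, had a Pearson r of 0.489 and a Spearman rho of 0.43, where genes are not independent replicates.

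The 52 genes were sorted by whether the response passed within each genotype. The response was lost in zuo1Δ for 20 genes, of which 17 had fallen and 3 had risen in wild type. A response was gained in zuo1Δ for 25 genes, with 9 that rose and 16 that fell there and did not pass in wild type. The direction was reversed for 3 genes, RPL7B, VTC1 and MRH1, which rose in zuo1Δ and fell in wild type. GSC2, YHB1 and GDH1 had a smaller response of the same sign in zuo1Δ, and MBF1 had a larger one.

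The number of genes called depended on single libraries. Leaving out heat replicate 1 of zuo1Δ gave 48 genes, 32 of them among the 52, and heat replicate 2 gave 22 (19 of the 52). Leaving out unstressed replicate 1 of zuo1Δ gave 7 (all among the 52) and unstressed replicate 2 gave 34 (29). Of wild type, leaving out heat replicate 1 gave 7 and heat replicate 2 gave 2, all among the 52, and leaving out unstressed replicate 1 gave 11 (9 of the 52) and unstressed replicate 2 gave 3 (all 3). GSC2 and PHO5 passed in all 8 of these fits, LEU1 in 7, TSR2 in 6 and VMR1 in 5. The zuo1Δ footprint library labelled H2O2 replicate 1 stood low on the antioxidant list of Yap1 and Skn7 (-0.20, against 1.00 in H2O2 replicate 2). It is not part of the contrast and enters the fit through the spread, the TMM factors and the low-count filter. With it left out, all 52 genes kept the sign of their interaction, which is no check, since this library is not part of the contrast.

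**Figure D1:**
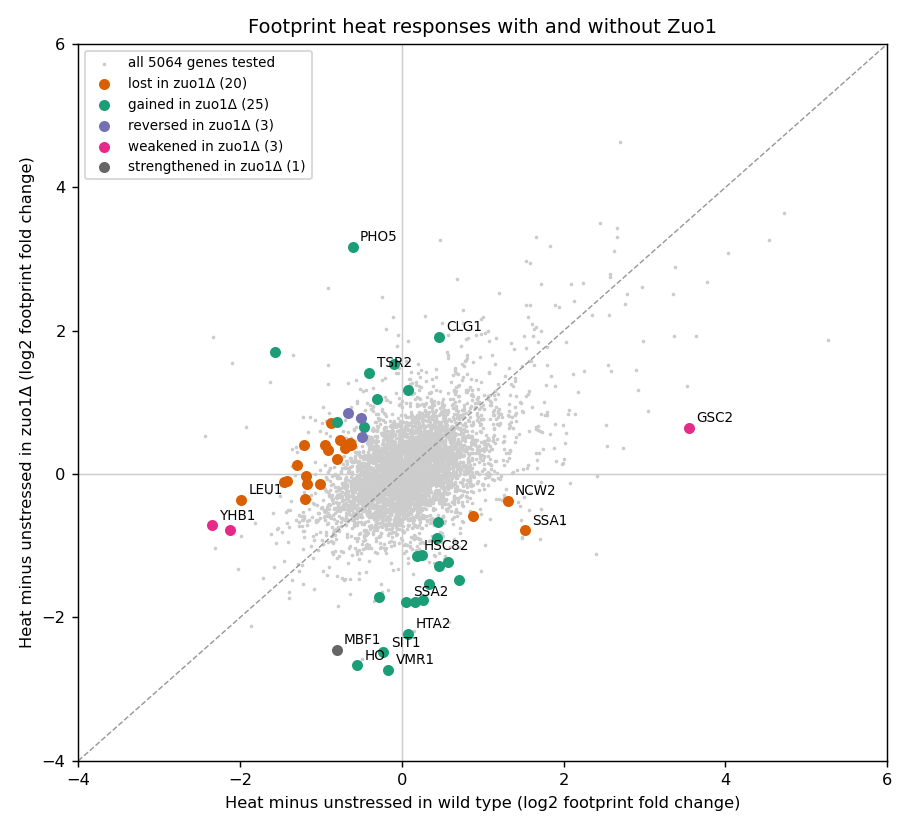
Log2 footprint heat response (heat minus unstressed) of each of 5064 genes in zuo1Δ (vertical) and wild type (horizontal), with the 52 genes whose response differed coloured by class and equal responses on the dashed line. GSC2 lies far to the right of the line at 3.55 in wild type and 0.65 in zuo1Δ, and PHO5 far above it at -0.61 and 3.17.

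The most negative interaction was that of a cell wall gene, GSC2, which was high in zuo1Δ before heat. GSC2 (YGR032W, chromosome VII) encodes the stress-induced catalytic subunit of the glucan synthase that builds the main polymer of the cell wall. It had 1232 and 1117 CPM in zuo1Δ after heat, 758 and 741 CPM in zuo1Δ unstressed, 762 and 847 CPM in wild type after heat, and 63.5 and 73.7 CPM in wild type unstressed. Only the unstressed wild-type libraries were low, and unstressed zuo1Δ was already at the level of heated wild type. The response was 0.65 ± 0.17 in zuo1Δ (log2 ± SE, edgeR adjusted p = 0.0295) and 3.55 ± 0.19 in wild type (adjusted p = 1.8e-06), an interaction of -2.90 ± 0.25 (adjusted p = 0.000346).

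NCW2 (YLR194C), a structural protein of the cell wall, had 102 and 140.2 CPM in zuo1Δ after heat, 150.4 and 162 in zuo1Δ unstressed, 85.7 and 126 in wild type after heat, and 43.7 and 42.5 in wild type unstressed. Its rise in wild type (1.31 ± 0.22, edgeR adjusted p = 0.00376) was lost in zuo1Δ (-0.37 ± 0.20, adjusted p = 0.229), with an interaction of -1.68 ± 0.30 (adjusted p = 0.0252). PHO87 (YCR037C), a low-affinity phosphate transporter that the calcineurin list holds, had 43.6 and 38.1 CPM in zuo1Δ after heat, 101 and 99.2 in zuo1Δ unstressed, 24.9 and 32.0 in wild type after heat, and 16.9 and 25.2 in wild type unstressed. It fell in zuo1Δ alone (-1.28 ± 0.19, edgeR adjusted p = 0.00316) and its interaction was -1.74 ± 0.29 (adjusted p = 0.0241). In GSC2, NCW2 and PHO87 unstressed zuo1Δ stood above unstressed wild type without overlap.

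Of 39 cell wall integrity genes tested, 2 passed the interaction, both lower (0.415% of all genes). The list median was -0.12 against -0.04 for all genes. After heat 10 of these genes rose and 2 fell in zuo1Δ (5.61% and 6.26% of all genes). In wild type 13 rose and 1 fell (3.53% and 6.28%). Unstressed, 7 of the 39 were higher in zuo1Δ than in wild type and 0 lower (1.78% and 3.04%). Under heat 4 were higher and 0 lower (2.86% and 3.61%). SLT2, the kinase at the end of the pathway, rose by 1.09 in zuo1Δ and 0.71 in wild type, CRH1, a cell wall transglycosylase, by 0.86 and 1.13, and YPS3, a surface protease, by 1.23 and 1.37. Of 27 calcineurin and Crz1 genes, 2 passed, both lower (GSC2 and PHO87), against 0.415% of all genes, with a median of -0.32. Below 0 were 19 values, against 2681 of all 5064 genes. In zuo1Δ 1 gene of that list rose and 6 fell after heat (5.61% and 6.26% of all genes). In wild type 3 rose and 1 fell (3.53% and 6.28%). Unstressed, 6 of the 27 were higher in zuo1Δ than in wild type and 0 lower (1.78% and 3.04%). Under heat 3 were higher and 0 lower (2.86% and 3.61%).

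The most positive interaction was that of PHO5, and 5 other phosphate genes were called with the same sign. PHO5 (YBR093C, chromosome II), the secreted acid phosphatase that is switched on when phosphate is short, had 334 and 508 CPM in zuo1Δ after heat, 55.7 and 36.9 CPM in zuo1Δ unstressed, 250.2 and 243 CPM in wild type after heat, and 381 and 369.8 CPM in wild type unstressed. Unstressed zuo1Δ was the low group, and heated zuo1Δ lay above both unstressed zuo1Δ and heated wild type without overlap. The response was 3.17 ± 0.28 in zuo1Δ (edgeR adjusted p = 0.000225) and -0.61 ± 0.26 in wild type (adjusted p = 0.165), and the interaction was 3.78 ± 0.38 (adjusted p = 0.000794).

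PHO84 (YML123C), the high-affinity phosphate transporter, had 3905 and 3395 CPM in zuo1Δ after heat, 1591 and 1929.9 in zuo1Δ unstressed, 3167 and 3426 in wild type after heat, and 3836 and 4316 in wild type unstressed. It rose in zuo1Δ (1.05 ± 0.16, edgeR adjusted p = 0.00362) and its interaction was 1.36 ± 0.23 (adjusted p = 0.0241). VTC1 (YER072W), a subunit of the vacuolar complex that makes polyphosphate, had 320.3 and 407 CPM in zuo1Δ after heat, 214 and 209 in zuo1Δ unstressed, 379 and 351 in wild type after heat, and 487 and 549 in wild type unstressed. It rose by 0.78 in zuo1Δ and fell by 0.51 in wild type (edgeR adjusted p = 0.00788 and 0.0482), with an interaction of 1.29 ± 0.21 (adjusted p = 0.0241). In PHO84 and VTC1 the heated cells of zuo1Δ and wild type overlapped, and the unstressed cells did not.

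VTC3, another subunit of that complex, PHO3, a constitutive acid phosphatase, and PHO8, the vacuolar alkaline phosphatase, were also called. VTC3 had an interaction of 1.24, with 636 and 589 CPM in zuo1Δ after heat, 424 and 461 in zuo1Δ unstressed, 762 and 629.7 in wild type after heat, and 1080.2 and 1287 in wild type unstressed. PHO3 and PHO8 had interactions of 1.08 and 1.10, and PHO8 rose by 1.17 in zuo1Δ against 0.07 in wild type. PHO3 and PHO5 are neighbours with similar sequence, and the sources used here do not say how their shared reads were counted. Of the 26 phosphate regulon genes tested, 6 had a higher interaction and 0 a lower one (0.612% and 0.415% of all genes). PHO87, a phosphate transporter that this list does not hold, had a lower one (-1.74). The list median was 0.76. Without 1 library the higher calls numbered 1 to 5, with 1 or 2 of them left without either wild-type unstressed library, either wild-type heat library or unstressed replicate 1 of zuo1Δ, and the median stayed at 0.65 to 0.88. In zuo1Δ 10 of the 26 rose after heat and 0 fell, while in wild type 0 rose and 7 fell. Without stress 13 of the 26 were lower in zuo1Δ than in wild type and 0 higher (3.04% and 1.78% of all genes), and after heat 0 were lower and 2 higher (3.61% and 2.86%). The regulators PHO4 (-0.56), PHO80 (-0.20) and PHO85 (-0.12) did not pass, and PHO11, a PHO5 paralog, was at 3.64 with an adjusted p of 0.057.

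**Figure D2:**
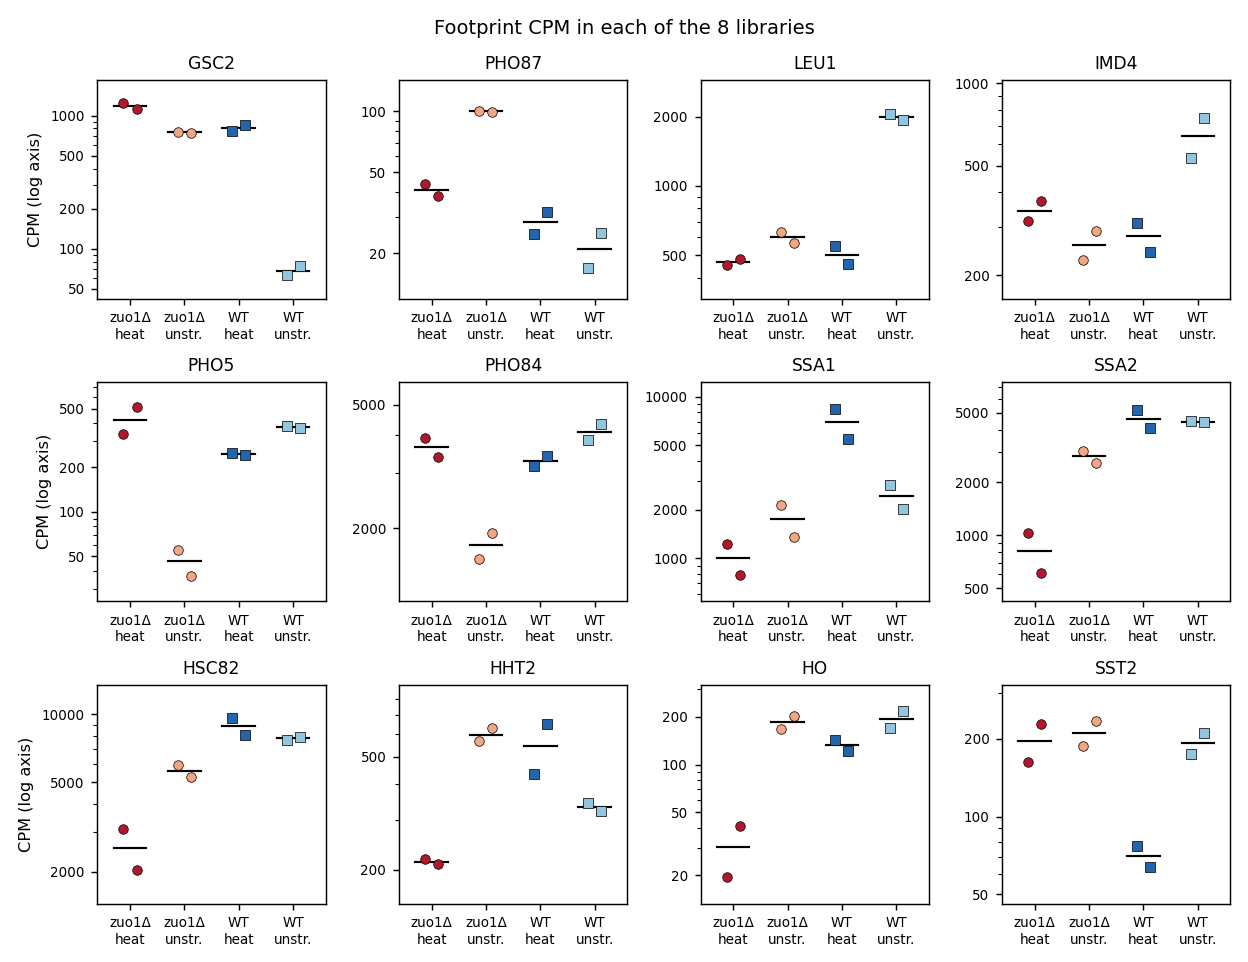
Footprint CPM (log axis) of 12 genes in each of the 8 libraries, with circles for zuo1Δ, squares for wild type and a line at each group mean. Unstressed wild type stands apart in GSC2 and LEU1, unstressed zuo1Δ in PHO5, heated wild type in SSA1, and heated zuo1Δ in SSA2, HSC82, HHT2 and HO.

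The chaperone genes SSA1, SSA2, HSC82 and STI1 were lowest in heated zuo1Δ. SSA1 (YAL005C), a cytosolic Hsp70, had 1229.7 and 795 CPM in zuo1Δ after heat, 2135 and 1360.0 CPM in zuo1Δ unstressed, 8419.9 and 5520.1 CPM in wild type after heat, and 2829 and 2037 CPM in wild type unstressed. Heated wild type was the highest group and heated zuo1Δ the lowest, with no overlap between any heated and unstressed group of a genotype. SSA1 rose in wild type (1.52 ± 0.33, edgeR adjusted p = 0.0139), did not pass in zuo1Δ (-0.79 ± 0.33, adjusted p = 0.136), and had an interaction of -2.31 ± 0.47 (adjusted p = 0.0355), which passed in 1 of the 8 fits without 1 library.

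SSA2 (YLL024C), the constitutive copy of that Hsp70, had 1029 and 609.9 CPM in zuo1Δ after heat, 3036 and 2596 in zuo1Δ unstressed, 5146 and 4077 in wild type after heat, and 4471 and 4410.1 in wild type unstressed. It fell in zuo1Δ (-1.78 ± 0.21, edgeR adjusted p = 0.000881) and did not pass in wild type (0.05 ± 0.20, adjusted p = 0.893), with an interaction of -1.83 ± 0.29 (adjusted p = 0.0241). SSA1 and SSA2 are nearly identical in sequence, so the split of reads between them is uncertain.

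HSC82 (YMR186W), the constitutive Hsp90, had 3086 and 2031 CPM in zuo1Δ after heat, 5974 and 5294 in zuo1Δ unstressed, 9639 and 8129.6 in wild type after heat, and 7721 and 7958 in wild type unstressed. STI1 (YOR027W), which bridges Hsp70 and Hsp90, had 590.0 and 384 CPM in zuo1Δ after heat, 1362 and 929.5 in zuo1Δ unstressed, 2366 and 1788 in wild type after heat, and 1577 and 1226 in wild type unstressed. Both fell in zuo1Δ alone, and their interactions were -1.32 ± 0.25 and -1.80 ± 0.34 (edgeR adjusted p = 0.0319 and 0.029). MBF1 (YOR298C-A), a conserved transcriptional coactivator, had 58.1 and 59.3 CPM in zuo1Δ after heat, 384 and 257 in zuo1Δ unstressed, 320.2 and 246 in wild type after heat, and 547 and 439 in wild type unstressed. It fell in both genotypes, by 2.45 in zuo1Δ and 0.81 in wild type, with an interaction of -1.64 ± 0.30 (edgeR adjusted p = 0.0256).

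Of the 26 Hsf1 genes tested, 5 passed the interaction, all lower, against 0.415% of all genes. Against 2681 of all 5064 genes, 20 of the 26 were below 0, and the list median was -0.55. Without any 1 of the 4 wild-type libraries or unstressed replicate 1 of zuo1Δ 0 of them passed, without heat replicate 2 of zuo1Δ 1 passed, and without either other zuo1Δ library 4 passed. The median lay at -1.07 without wild-type unstressed replicate 1, -1.04 without zuo1Δ heat replicate 1, between -0.91 and -0.34 in 3 other fits of this kind, and at -0.33, -0.30 and -0.28 without wild-type unstressed replicate 2, zuo1Δ unstressed replicate 1 and wild-type heat replicate 1. After heat 3 of them rose and 6 fell in zuo1Δ, while 6 rose and 2 fell in wild type. Between the genotypes under heat 12 of the 26 were lower in zuo1Δ and 0 higher (3.61% and 2.86% of all genes). Without stress 0 passed in either direction (3.04% lower and 1.78% higher among all genes). The inducible genes SSA4, HSP26 and SSA3 rose in both genotypes, by 2.51, 2.89 and 2.62 in zuo1Δ and by 3.36, 3.38 and 2.97 in wild type. HSP104, the disaggregase, and HSP82, the inducible Hsp90, had interactions of -1.82 ± 0.62 and -1.79 ± 0.56 that did not pass (edgeR adjusted p = 0.20 and 0.16). BTN2, an aggregate-sorting factor, stood on the other side at 2.97 ± 0.76 (adjusted p = 0.11).

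**Figure D3:**
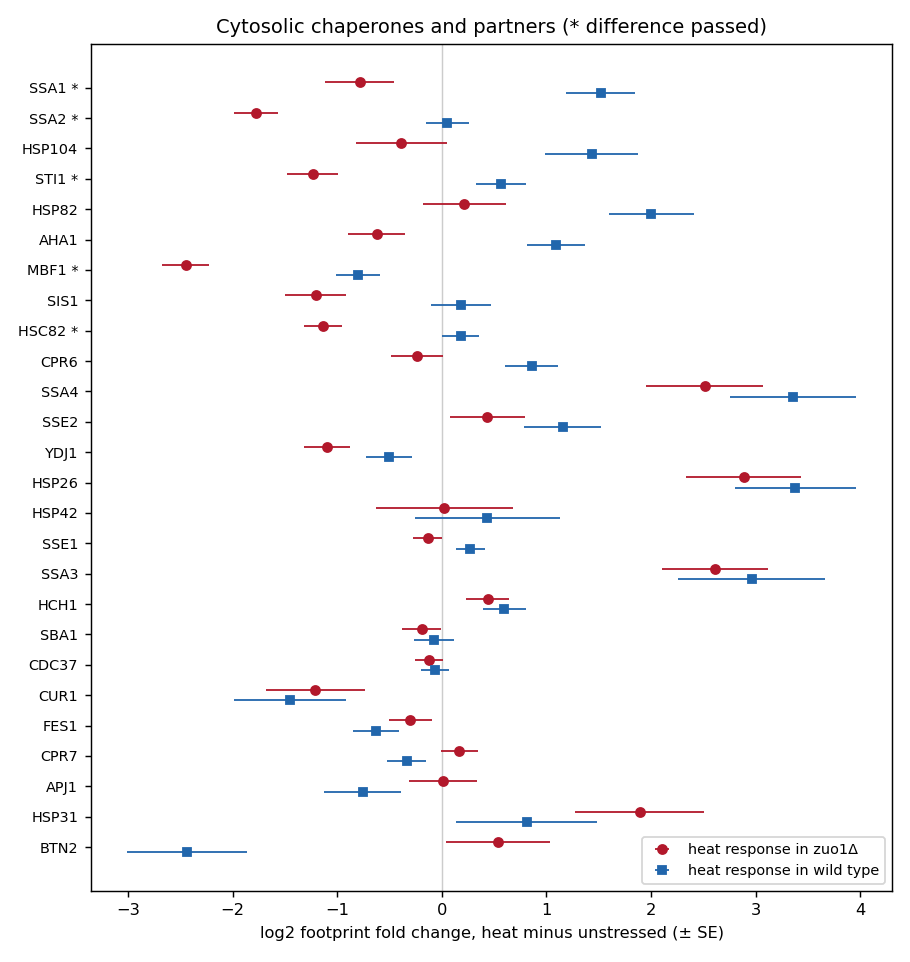
Log2 footprint heat response (± SE) of the 26 Hsf1 genes in zuo1Δ (circle, upper of each pair) and wild type (square), ordered by interaction with the lowest on top; an asterisk marks the 5 whose interaction passed. SSA1 is at -0.79 in zuo1Δ and 1.52 in wild type, while SSA4, HSP26 and SSA3 lie right of 0 in both.

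Most histone genes fell after heat in zuo1Δ, and none of them passed in wild type. HHT2 (YNL031C), an H3 gene, had 218 and 209 CPM in zuo1Δ after heat, 566 and 629.6 CPM in zuo1Δ unstressed, 436 and 652 CPM in wild type after heat, and 344 and 323 CPM in wild type unstressed. HTA2 (YBL003C), an H2A gene, had 128 and 147 CPM in zuo1Δ after heat, 655 and 632 in zuo1Δ unstressed, 285 and 392 in wild type after heat, and 349 and 293 in wild type unstressed. Heated zuo1Δ was lowest in both genes and unstressed zuo1Δ lay above unstressed wild type. The interactions were -2.19 ± 0.33 for HHT2 and -2.31 ± 0.42 for HTA2 (edgeR adjusted p = 0.0185 and 0.0256).

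HHF2, an H4 gene that neighbours HHT2, and HHT1, the other H3 gene, had interactions of -1.95 and -2.01. HTB2, an H2B gene, lay just outside the threshold at -1.53 ± 0.33 (edgeR adjusted p = 0.0507). Of the 11 histone genes tested 4 passed, all lower, against 0.415% of all genes. The median was -1.42 and 10 were below 0, against 2681 of all 5064 genes. After heat 9 of the 11 fell in zuo1Δ and 1 rose (CSE4, the centromeric H3 variant, 0.65), whereas 0 passed in wild type, where the median was 0.10. The H3 and H4 genes come in near-identical pairs, so counts within a pair are uncertain. Without 1 library 0 to 2 of the 11 passed, and the median stayed at -1.50 to -1.26. HHT1 and HTA2 passed in 0 of these 8 fits, HHF2 in 1 and HHT2 in 4.

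The lists of amino acid genes held few calls. Called were 1 of 48 genes of other amino acid synthesis (median 0.12) and 2 of 29 of arginine, proline and glutamate (median 0.06). Of sulfate assimilation and methionine 1 of 27 was called (median 0.19). All of these were higher, against 0.612% of all genes. LEU1 (YGL009C, chromosome VII), the isopropylmalate isomerase of leucine synthesis, had 455 and 482 CPM in zuo1Δ after heat, 632 and 566 CPM in zuo1Δ unstressed, 549 and 458 CPM in wild type after heat, and 2060.1 and 1937 CPM in wild type unstressed. Unstressed wild type was the high group and the other 3 groups lay close together. The response was -0.36 ± 0.15 in zuo1Δ (edgeR adjusted p = 0.141) and -1.99 ± 0.16 in wild type (adjusted p = 5.69e-05), with an interaction of 1.63 ± 0.21 (adjusted p = 0.00914). OAC1, the mitochondrial carrier of oxaloacetate and of a leucine precursor, had the same pattern, with 113 and 90.2 CPM in zuo1Δ after heat, 96.8 and 122 in zuo1Δ unstressed, 112 and 92.9 in wild type after heat, and 282 and 264 in wild type unstressed (interaction 1.32).

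GDH1, which makes glutamate from ammonia, had 329 and 282 CPM in zuo1Δ after heat, 619 and 429 in zuo1Δ unstressed, 257 and 249.6 in wild type after heat, and 1157 and 1057 in wild type unstressed. It fell in both genotypes, by 0.78 in zuo1Δ and 2.13 in wild type, with an interaction of 1.35 ± 0.24 (edgeR adjusted p = 0.0252). SAM1, an S-adenosylmethionine synthetase, ALD5, a mitochondrial aldehyde dehydrogenase, and DUR12, the urea amidolyase, fell in wild type by 1.19, 1.17 and 0.95, with interactions of 1.17, 1.04 and 1.35. In DUR12 zuo1Δ stayed below wild type under heat as well, at 60.9 and 70.1 CPM in zuo1Δ against 134 and 126 CPM in wild type.

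IMD4 and IMD3, the IMP dehydrogenases that commit IMP to GMP, lost their fall. IMD4 had 314 and 371 CPM in zuo1Δ after heat, 226 and 290.0 in zuo1Δ unstressed, 311 and 244 in wild type after heat, and 534 and 746 in wild type unstressed. The interactions were 1.62 ± 0.28 for IMD4 and 1.01 ± 0.18 for IMD3 (edgeR adjusted p = 0.0241 and 0.0252), and IMD2, at 1.28, had an adjusted p of 0.056. These 3 genes are close paralogs. Of the 9 genes of the list, 2 passed, both higher, against 0.612% of all genes, with a median of 1.01. ADE12, which commits IMP to AMP, gained a rise in zuo1Δ (0.66 ± 0.16, edgeR adjusted p = 0.0206) with an interaction of 1.14, and was 1 of 16 adenine synthesis genes called.

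For YHB1 and IDH2 the genotypes differed under heat and the unstressed difference did not pass. YHB1 (YGR234W), the flavohaemoglobin that removes nitric oxide, had 755 and 1009 CPM in zuo1Δ after heat, 1289 and 1609.9 in zuo1Δ unstressed, 208 and 242 in wild type after heat, and 1060.4 and 1228 in wild type unstressed. It fell by 0.72 in zuo1Δ and fell by 2.34 in wild type, an interaction of 1.63 ± 0.28 (edgeR adjusted p = 0.0241). IDH2, a subunit of the mitochondrial isocitrate dehydrogenase, had 409 and 303 CPM in zuo1Δ after heat, 574 and 556 in zuo1Δ unstressed, 709 and 609.5 in wild type after heat, and 447 and 517 in wild type unstressed, with an interaction of -1.12 ± 0.23 (adjusted p = 0.0355).

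The median ribosomal protein gene was lower after heat in both genotypes. Of 136 genes tested, 50 fell and 2 rose in zuo1Δ, while 101 fell and 0 rose in wild type. The list median was -0.48 in zuo1Δ and -0.84 in wild type. Above 0 were 119 of 136 interactions, against 2383 of all 5064 genes, with a median of 0.41. Unstressed, 35 of the 136 were lower in zuo1Δ and 2 higher (3.04% and 1.78% of all genes). Under heat 1 was lower and 8 higher (3.61% and 2.86% of all genes). Single interactions passed for 5 of the 136, all higher (0.612% of all genes), which were RPL7B, RPS29B, RPL14B, RPL23A and RPL23B. Without 1 library 0 to 6 passed.

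RPL7B had 227 and 178 CPM in zuo1Δ after heat, 105 and 120.2 in zuo1Δ unstressed, 87.5 and 109.5 in wild type after heat, and 171 and 143 in wild type unstressed. It rose by 0.85 in zuo1Δ and fell by 0.66 in wild type (edgeR adjusted p = 0.0138 and 0.0436), with an interaction of 1.52 ± 0.26 (adjusted p = 0.0241). RPS29B had a response of 0.13 in zuo1Δ, which did not pass, against -1.29 in wild type, which did, and its interaction was 1.42. RPL14B, RPL23A and RPL23B had interactions of 1.03, 0.87 and 0.85. Each of these genes has a paralog of nearly the same sequence.

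The genes of the partners of Zuo1 showed no interaction that passed. SSZ1 had 1378 and 1421 CPM in zuo1Δ after heat, 1674 and 1755 in zuo1Δ unstressed, 1037 and 1044 in wild type after heat, and 1712 and 1836 in wild type unstressed, and fell in wild type (-0.77 ± 0.15, edgeR adjusted p = 0.00674). SSB1 fell by 0.80 in zuo1Δ and 1.48 in wild type, and SSB2 by 0.71 and 1.17. The interactions of 0.48 ± 0.21, 0.68 ± 0.25 and 0.46 ± 0.21 did not pass (adjusted p = 0.296, 0.224 and 0.316). Of the 10 genes on the list of chaperones at the ribosome, 0 passed the interaction.

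Of the mating genes, 3 that fell in heated wild type did not fall in zuo1Δ by the test. SST2, which turns off the pheromone-activated G protein, had 163 and 227 CPM in zuo1Δ after heat, 187 and 233 in zuo1Δ unstressed, 76.9 and 63.8 in wild type after heat, and 175 and 209.8 in wild type unstressed. Heated wild type was the low group, and the other 3 groups overlapped. GPA1, the alpha subunit of that G protein, had 212 and 269 CPM in zuo1Δ after heat, 175 and 205 in zuo1Δ unstressed, 140.1 and 108 in wild type after heat, and 235 and 229.7 in wild type unstressed. Their falls in wild type of 1.46 and 0.92 were lost, with interactions of 1.35 ± 0.27 and 1.25 ± 0.25 (edgeR adjusted p = 0.0355 and 0.0347). MFA2, an a-factor gene, had an interaction of 1.59 ± 0.33 (adjusted p = 0.0376). Of 21 mating genes tested 3 passed, all higher, against 0.612% of all genes. Against 2383 of all 5064 genes, 20 of the 21 were above 0, and the median was 1.00. Without heat replicate 1 of zuo1Δ 6 passed, without unstressed replicate 2 of zuo1Δ 2 passed, and without any 1 of the other 6 libraries 0 passed. The median was 0.51 without heat replicate 2 of zuo1Δ and 0.85 to 1.31 in the other fits of this kind. Under heat 10 of the 21 were higher in zuo1Δ than in wild type and 0 lower (2.86% and 3.61% of all genes). Without stress 0 were higher and 1 lower (1.78% and 3.04% of all genes).

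Other genes with a positive interaction act in ribosome assembly, transcription and at the membrane. TSR2 (YLR435W), which escorts a small-subunit ribosomal protein to its assembly site, had 122 and 119 CPM in zuo1Δ after heat, 40.6 and 50.0 in zuo1Δ unstressed, 69.6 and 69.8 in wild type after heat, and 80.4 and 104 in wild type unstressed, with an interaction of 1.82 ± 0.24 (edgeR adjusted p = 0.00914). RPC10, a subunit shared by the 3 nuclear RNA polymerases, had 166 and 159 CPM in zuo1Δ after heat, 46.0 and 66.8 in zuo1Δ unstressed, 57.6 and 54.5 in wild type after heat, and 52.9 and 66.4 in wild type unstressed (interaction 1.63 ± 0.27). Heated zuo1Δ alone was high in RPC10. CLG1, a cyclin-like partner of the kinase Pho85, and SRB7, a Mediator subunit, had interactions of 1.45 and 1.53. MRH1, a plasma membrane protein, rose by 0.52 in zuo1Δ and fell by 0.49 in wild type, with an interaction of 1.01 ± 0.17 (adjusted p = 0.0241).

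Falls gained in zuo1Δ also included those of VMR1, HO and SIT1. VMR1 (YHL035C), a vacuolar ABC transporter, had 2.83 and 3.61 CPM in zuo1Δ after heat, 18.3 and 23.9 in zuo1Δ unstressed, 23.5 and 28.3 in wild type after heat, and 32.5 and 26.6 in wild type unstressed (interaction -2.56 ± 0.38, edgeR adjusted p = 0.0185). At this level few reads of VMR1 were counted in heated zuo1Δ, so the size of its fall is uncertain. HO, the gene of the mating-type switching endonuclease, which is not functional in laboratory strains, had 19.5 and 40.7 CPM in zuo1Δ after heat, 168 and 202 in zuo1Δ unstressed, 143 and 122 in wild type after heat, and 171 and 217 in wild type unstressed (interaction -2.11 ± 0.38, adjusted p = 0.0252). SIT1, a siderophore transporter of the iron regulon, had 52.1 and 22.7 CPM in zuo1Δ after heat, 207 and 224 in zuo1Δ unstressed, 164 and 242 in wild type after heat, and 217 and 260.2 in wild type unstressed (interaction -2.26 ± 0.45, adjusted p = 0.0347). In VMR1, HO and SIT1 heated zuo1Δ was low and the other groups were near each other. FOB1, which blocks replication forks in the ribosomal DNA, lost its rise of 0.88 in wild type (interaction -1.47 ± 0.29, adjusted p = 0.0347).

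The naming rule left out 12 of the 52 genes, which were added after their values were seen, and those not given above follow. HRP1, an mRNA 3' end processing factor, PRY3, a cell wall sterol-binding protein, CCL1, a cyclin of the transcription factor TFIIH, and YDR154C fell in zuo1Δ alone, with interactions of -1.43, -1.39, -1.33 and -1.86. ERV46, a protein of vesicles between endoplasmic reticulum and Golgi, lost a fall of 0.70, with an interaction of 1.06. SLD7, a DNA replication initiation factor, was called at 3.27 ± 0.65 (edgeR adjusted p = 0.0347) but averaged under 10 CPM. At the threshold, MFA2, CCL1 and SRB7 were just inside with adjusted p-values of 0.0376, 0.0428 and 0.0428, and HTB2, PPN2 and GSH1 just outside with 0.0507, 0.0512 and 0.0512.

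Several lists had no single gene called. The 38 Msn2 and Msn4 genes had 0 calls, a median interaction of -0.53 and medians of 0.66 in zuo1Δ and 1.04 in wild type, and the unstressed replicates lay apart on this list. The median interaction was 0.07 without unstressed replicate 1 of zuo1Δ, -0.06 without unstressed replicate 2 of wild type, -0.83 without unstressed replicate 2 of zuo1Δ and -1.07 without unstressed replicate 1 of wild type, so its size and sign rested on single unstressed libraries. HSP12, a membrane-protecting heat shock protein, rose in zuo1Δ by 3.64 and in wild type by 4.72. The 18 trehalose and glycogen genes had 0 calls and a median of -0.71. The 43 proteasome genes had 0 calls with 38 below 0 and a median of -0.31. For the 108 ribosome biogenesis genes there were 0 calls, with 85 above 0 and a median of 0.21. Of all 5064 genes 2681 were below 0 and 2383 above, and genes of a list are not independent. Respiratory chain genes (44, median 0.02) and mitochondrial ribosomal protein genes (75, median -0.02) had 0 calls and medians near that of all genes.

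**Figure D4:**
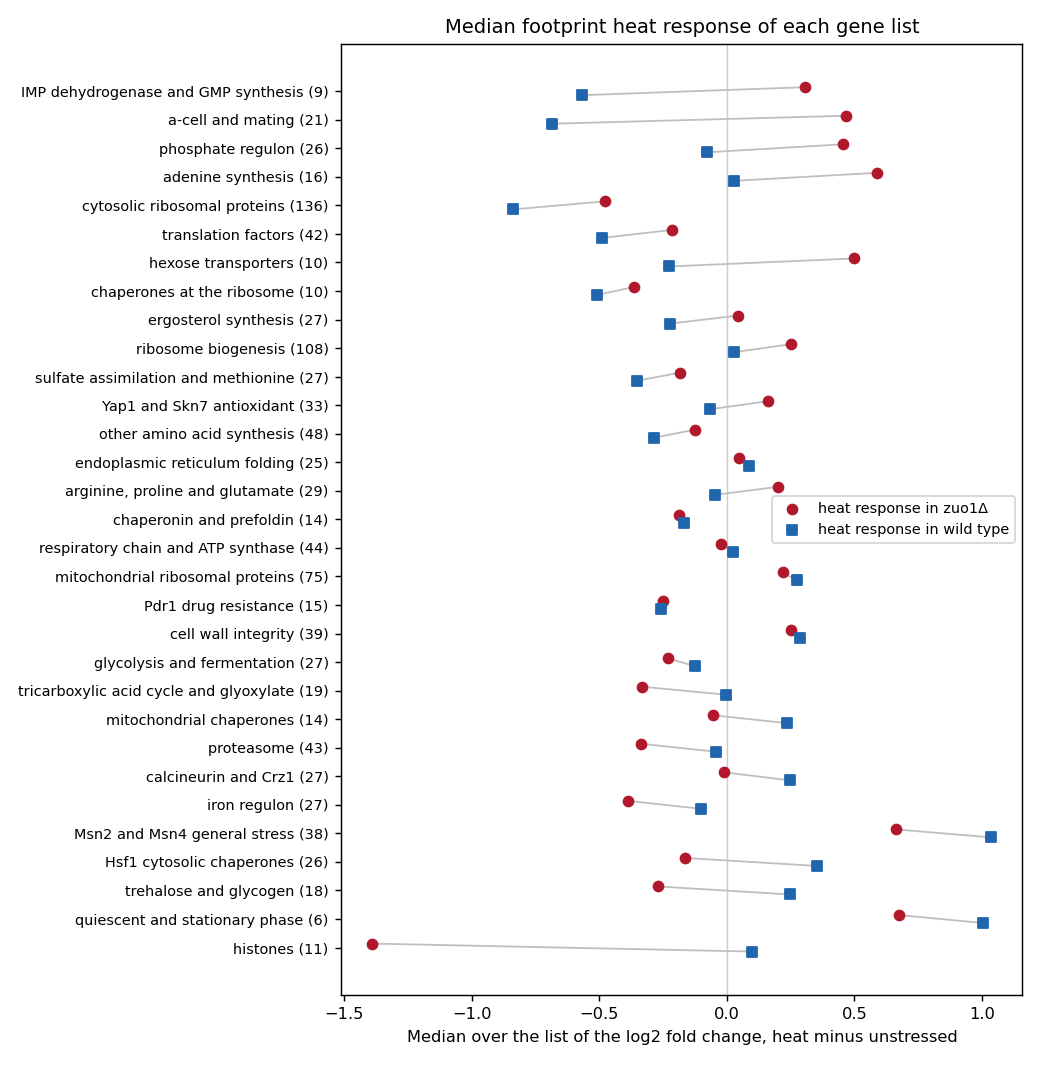
Median log2 footprint heat response of each gene list with at least 5 genes tested (number in brackets) in zuo1Δ (circle) and wild type (square), ordered by median interaction with the highest on top. Histones are at -1.39 in zuo1Δ and 0.10 in wild type, and mating genes at 0.47 and -0.69.

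An interaction can come from the unstressed or the heated cells, and both kinds were present. The genotype difference passed the test in the unstressed state alone for 22 of the 52 genes and under heat alone for 24. It passed in both for 4 and in neither for 2, and not passing does not show that the genotypes were equal. Of all genes 4.82% passed unstressed and 6.48% under heat. The 52 were chosen on the interaction, which is the heat difference minus the unstressed one. Most of them thus had to differ in some state, and the shares of all genes are no test of these counts. Of the 31 genes with a higher interaction, 18 passed unstressed alone and 9 under heat alone. Of the 21 with a lower one, 4 passed unstressed alone and 15 under heat alone. GSC2 was 3.45 ± 0.19 higher in zuo1Δ unstressed and 0.55 ± 0.17 higher under heat (edgeR adjusted p = 2.4e-06 and 0.0731), and LEU1 was at -1.74 ± 0.15 and -0.10 ± 0.15 (adjusted p = 9.18e-05 and 0.725). SSA1 was at -0.48 ± 0.33 unstressed and -2.78 ± 0.35 under heat (adjusted p = 0.469 and 0.00131), and SSA2 at -0.66 ± 0.20 and -2.49 ± 0.22 (adjusted p = 0.0927 and 0.000346).

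**Figure D5:**
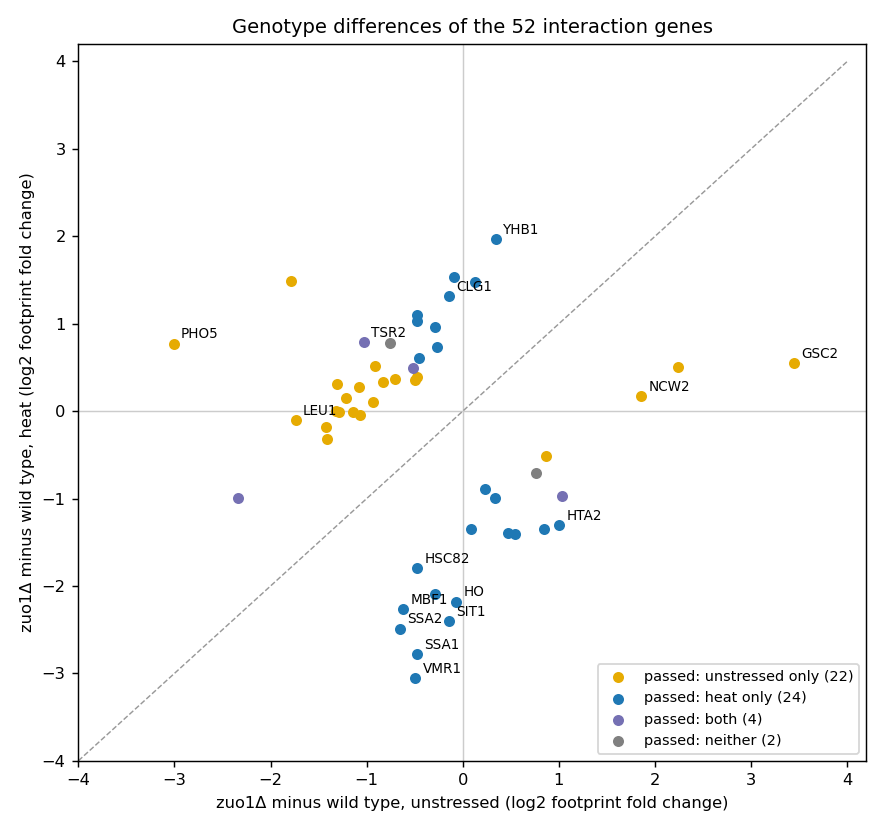
Log2 footprint difference, zuo1Δ minus wild type, under heat (vertical) and unstressed (horizontal) for the 52 genes, coloured by where that difference passed. SSA1, SSA2, HSC82, HO and VMR1 lie low on the vertical axis near the middle of the horizontal one, while GSC2 and PHO5 lie at 0.55 and 0.77 vertically and at 3.45 and -3.01 horizontally.

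The same contrast in mRNA called 0 of 5070 genes (0%) with edgeR (891 at an unadjusted p under 0.05) and 69 with DESeq2. The difference between the footprint and the mRNA interaction called 0 of 5070 genes with edgeR (745 at an unadjusted p under 0.05) and 7 with DESeq2, so a change in translational efficiency was not shown for the 52 genes. Replicates lay further apart in mRNA, with a biological coefficient of variation of 0.318 against 0.169 in footprints. Without zuo1Δ unstressed mRNA replicate 2, edgeR called 477 genes in mRNA and 343 in efficiency, and without wild-type unstressed mRNA replicate 1, 422 in efficiency. The mRNA interaction had the sign of the footprint interaction in 37 of the 52 genes, against 50.8% of all genes.

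The mRNA values of the leading genes had large errors. GSC2 mRNA stood at 931 and 1186 CPM in zuo1Δ after heat, 1956 and 1007 in zuo1Δ unstressed, 2243 and 2004 in wild type after heat, and 374 and 354 in wild type unstressed, an interaction of -3.03 ± 0.79 (edgeR adjusted p = 0.252). LEU1 and YHB1 mRNA had interactions of 3.38 ± 0.69 and 3.58 ± 0.79 (edgeR adjusted p = 0.252 for both). PHO5, TSR2 and VMR1 mRNA were at 2.17 ± 1.21, 0.27 ± 0.52 and 0.46 ± 0.60. Their footprint interactions were 3.78, 1.82 and -2.56, so the sign differed for VMR1. SSA1 and SSA2 mRNA had interactions of 0.06 ± 0.95 and -0.05 ± 1.01, against -2.31 ± 0.47 and -1.83 ± 0.29 in footprints. The replicates of heated zuo1Δ lay apart in mRNA, as did those of zuo1Δ after H2O2. On the antioxidant list the library labelled heat replicate 1 stood at 0.49 and heat replicate 2 at -0.62, while H2O2 replicate 1 stood at 0.53 and the library labelled H2O2 replicate 2 at -0.20. Without the libraries labelled heat replicate 1 and H2O2 replicate 2, edgeR again called 0 genes in mRNA (470 at an unadjusted p under 0.05) and, with the footprint library labelled H2O2 replicate 1 left out too, 0 in efficiency. The mRNA interactions were then -1.35 ± 0.91 for SSA1 and -1.57 ± 1.02 for SSA2 (edgeR adjusted p = 0.522 and 0.519), so the values near 0 rested on these libraries. GSC2, LEU1 and YHB1 were at -2.87 ± 0.83, 3.17 ± 0.81 and 2.98 ± 0.85 (adjusted p = 0.504 for each).

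After H2O2 (30 min, against 45 min for heat) the same kind of interaction called 69 genes (1.36%). It shares the unstressed libraries and had other values for several of the genes above. GSC2 stood at -0.10 ± 0.25 after H2O2 (edgeR adjusted p = 0.866) against -2.90 ± 0.25 after heat, SSA2 at 0.01 ± 0.29 (adjusted p = 0.988) against -1.83 ± 0.29, and YHB1 at 0.08 ± 0.27 (adjusted p = 0.902) against 1.63 ± 0.28. LEU1, TSR2 and VMR1 were also called after H2O2, at 1.43 ± 0.21, 2.11 ± 0.24 and -2.32 ± 0.30 (edgeR adjusted p = 0.0209, 0.00587 and 0.00619). So were PHO3, SAM1, YDR154C, RPS29B, MRH1, RPC10, RPL14B, RPL23A, RPL23B, SIT1 and IDH2, each with the sign of its heat interaction. Both interactions subtract the same unstressed differences, which favours equal signs, so these signs are no independent support. The H2O2 contrast rests on the zuo1Δ library labelled H2O2 replicate 1, which stood near the unstressed libraries. That library was at -0.20 against 1.00 in replicate 2 on the antioxidant list and 0.10 against 1.35 on the list of Msn2 and Msn4. Without it 20 genes were called (0.395%), GSC2, SSA2 and YHB1 were at -0.23 ± 0.24, 0.03 ± 0.31 and 0.37 ± 0.25 (edgeR adjusted p = 0.683, 0.978 and 0.507), and LEU1, TSR2 and VMR1 were still called, at 1.31, 2.20 and -2.28. The difference between the H2O2 and the heat interaction was not tested. The genes given with values were picked from the leading ones after their values were seen, and the others are not given without that library.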

How the data were processed

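Poly(A) mRNA and ribosome footprints of zuo1Δ and wild-type yeast were sequenced unstressed, after H2O2 and after heat, in 24 libraries. The authors deposited unnormalised counts of reads for each gene. Per the submitters' processing notes, cutadapt, Bowtie2, HISAT2, SAMtools and the build R64 were used, while the tool that counted reads and its handling of strand and shared reads were not given in the sources used here. Of 5211 genes with counts, 5198 matched the gene table that gave symbols, and 3 empty lines were left out. Left out were 54 genes without a count in zuo1Δ and 87 without a count in wild type, since a response cannot be formed for them, and of the remaining 5070 genes 5064 passed the low-count filter in footprints.

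The analysis used edgeR 4.0.16 in R 4.3.3 (glmQLFit and glmQLFTest, TMM factors, filterByExpr with minimum count 10 and minimum total 15) on the 12 footprint libraries. The H2O2 libraries are not part of the contrast and entered through the spread, the TMM factors and the low-count filter. A call is a Benjamini-Hochberg adjusted p under 0.05 over all genes tested. SE is the absolute log2 value over the square root of F, and CPM are TMM-scaled. The mRNA contrast used 12 libraries and efficiency all 24. DESeq2 1.42.0 was an alternative, and the tests were checked on simulated counts. With 2 libraries per group, p-values rest on few replicates, and no molecular identifiers are named, so counting error alone understates the error.

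The text names, in each class, up to 6 genes with the most positive and 6 with the most negative interaction at a mean of at least 10 CPM, up to 4 called genes of each list (made up to 2), and SSZ1, SSB1 and SSB2. Other list members are named where a count turns on them, chosen after their values were seen. The genes and the 34 lists were chosen with earlier results of these data known. Replicate numbers are not said to mark shared cultures, so no block was used.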

Additional observations from a re-analysis of the deposited data

Results flagged for a closer look

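Each result here was flagged because the heat response differed between zuo1Δ and wild type by the test of the difference itself, the edgeR interaction, which 52 genes passed. Values are log2 interactions, zuo1Δ minus wild type. Groups of 2 libraries are too small for a test of single outlying libraries.

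Among genes for phosphate use the values were 3.78 for PHO5, 1.36 for PHO84, 1.29 for VTC1, 1.24 for VTC3 and -1.74 for PHO87. For cell wall genes they were -2.90 for GSC2 and -1.68 for NCW2. For chaperones and MBF1 they were -2.31 for SSA1, -1.83 for SSA2, -1.80 for STI1 and -1.64 for MBF1. For histones they were -2.31 for HTA2, -2.19 for HHT2, -2.01 for HHT1 and -1.95 for HHF2.

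For metabolic genes they were 1.63 for LEU1, 1.63 for YHB1, 1.62 for IMD4, 1.35 for GDH1, 1.35 for DUR12, 1.17 for SAM1, 1.14 for ADE12, 1.01 for IMD3 and -1.12 for IDH2. For ribosomal proteins they were 1.52 for RPL7B, 1.42 for RPS29B, 1.03 for RPL14B and 0.87 for RPL23A. For mating genes they were 1.59 for MFA2, 1.35 for SST2 and 1.25 for GPA1. The others were 1.82 for TSR2, 1.63 for RPC10, 1.53 for SRB7, 1.45 for CLG1, 1.01 for MRH1, -1.47 for FOB1, -2.11 for HO, -2.26 for SIT1 and -2.56 for VMR1.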

How the results depend on the processing

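The interaction called 52 genes in the fit reported, 137 with DESeq2 (all 52 among them), 85 with the replicate block (all 52), 61 with the block within genotype (48), 66 with RLE factors (52), 74 with only the 8 libraries compared (48), 49 with library size alone (42, with 30 of the 52 in the same class), 102 without the doubted libraries (51), which here is the zuo1Δ footprint library labelled H2O2 replicate 1, a setting chosen after seeing the data, and 2 to 48 when 1 library was left out. The heat response called 601 genes in zuo1Δ (142 to 566 without 1 library) and 497 in wild type (133 to 535, and 819 with library size alone). Library size alone moved the median of all genes to 0.33 in wild type and 0.18 in zuo1Δ after heat, and to -0.14 for the interaction, against 0.07, 0.01 and -0.04.

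Lost genes numbered 20, against 13 with library size alone, 56 with DESeq2, 39 without the doubted libraries and 0 to 23 without 1 library. Gained genes numbered 25, against 56 with DESeq2, 43 with the replicate block, 38 without the doubted libraries and 1 to 19 without 1 library. Reversed genes numbered 3, against 6 with library size alone, 8 with DESeq2, 5 with only the 8 libraries compared in the fit, 8 with the replicate block, 6 with the replicate block within genotype, 12 at an adjusted p under 0.1 within each genotype, 7 without the doubted libraries and 0 to 4 without 1 library. Of the 52 genes 0 changed sign in any of the 16 other settings, which share libraries with the fit that chose them. The mRNA contrast called 0 genes, 69 with DESeq2 and 0 to 477 without 1 library, and efficiency 0, 7 with DESeq2 and 0 to 422. The cause of these moves was not tested.

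Same-numbered libraries correlated in their deviations from group means at -0.04 to 0.35 in footprints and 0.06 to 0.78 in mRNA, highest in both assays between the unstressed libraries of zuo1Δ and wild type (0.35 and 0.78). Not every pair passed 0.1 and the labels name no shared culture, so the numbers were not taken as pairs. With 2 libraries per group and unstressed wild type at 1686930 and 1788399 counts, small differences were not detectable at this depth.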
